A study of Mus musculus with 6 samples.

Results

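Transcripts of the LINC complex, which links nucleoskeleton to cytoskeleton, were compared between lamin A/C knockdown and control E0771 cells, a mouse breast carcinoma line. The members are the nesprin genes Syne1, Syne2 and Syne3, the SUN protein genes Sun1 and Sun2, and Tor1a, which encodes torsinA. They were matched by symbol in the deposited count table, and all 6 were found among its 10520 genes and passed the filter on low counts, which left 8969 genes. RNA was read by MARS-seq, a 3' end method in which a unique molecular identifier (UMI) marks each captured molecule, so that its amplified copies are counted once. The shLmna group (3 libraries) carried a stably introduced lentiviral shRNA against lamin A/C, and the shControl group (3 libraries) carried the matching empty pLKO.5-puro vector. Both groups are of the C57BL/6 background by their labels and were selected with puromycin after transduction. No clone is named in the labels, and the shRNA-bearing libraries are titled shRNA4. Separate cultures are not stated either, so p-values measure only the spread between these libraries, which may be technical. The shControl libraries held positions 13 to 15 of plate 3 and the shLmna libraries positions 16 to 18, so plate position and group cannot be told apart.

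The LINC complex spans both membranes of the nuclear envelope. SUN proteins sit in the inner membrane, bind the lamina with their nucleoplasmic part and reach into the space between the membranes, where the SUN domain grips the KASH peptide at the C-terminal end of a nesprin anchored in the outer membrane. The large nesprins, nesprin-1 (Syne1) and nesprin-2 (Syne2), bind actin and microtubule motors on the cytoplasmic side, and nesprin-3 (Syne3) binds plectin and through it the intermediate filaments. TorsinA is an ATPase of the lumen of the endoplasmic reticulum and nuclear envelope that acts on the assembly and turnover of SUN-nesprin contacts. Lamin A/C is one of the anchors of the SUN proteins, so the complex joins the structure targeted here to the cytoskeleton that pulls on the nucleus when a cell squeezes through a pore.

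The KASH-coding ends of the nesprins are shown because they carry the feature that makes a nesprin a LINC member. They also lie in the counted stretch of an annotated transcript of each nesprin gene, though not of every one. Each line gives the last 90 coding bases of a GENCODE M21 transcript (GRCm38, the mm10 assembly) that is matched to a RefSeq transcript, with the stop codon and the in-frame CCN codons among the 5 codons before it in capitals.
Syne1, KASH-coding end (chr10:5022007-5022096, reverse strand, exon 17 of 17): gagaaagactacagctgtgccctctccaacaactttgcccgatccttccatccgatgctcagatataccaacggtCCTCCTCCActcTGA
Syne2 (chr12:76109955-76110044, forward strand, exon 116 of 116): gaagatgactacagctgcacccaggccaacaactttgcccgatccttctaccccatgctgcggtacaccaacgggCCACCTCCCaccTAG
Syne3 (chr12:104932165-104932254, reverse strand, exon 17 of 17): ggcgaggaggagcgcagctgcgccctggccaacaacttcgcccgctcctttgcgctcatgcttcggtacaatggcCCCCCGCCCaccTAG
Syne1, internal end (chr10:5339203-5339292, reverse strand, exon 32 of 32): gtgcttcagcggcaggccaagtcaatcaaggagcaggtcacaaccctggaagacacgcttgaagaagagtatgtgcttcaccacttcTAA
The 3 KASH-coding ends finish in a run of 3 CCN codons and 1 further codon, the coding form of the proline-rich tail that fits into the SUN domain. Over these 90 bases Syne1 and Syne2 shared 68 positions (75.6%) without a gap. The alignments of Syne3 needed 3 gap columns in each sequence and held 68 identical positions with Syne2 (73.1% of 93 columns) and 59 with Syne1 (63.4%).

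The counted stretch of a RefSeq gene was its final 1000 bases plus 100 bases past the end, which bears on what each value stands for. Syne1 (chr10:5020917-5551482) has 2 RefSeq 3' ends in this annotation, the KASH-coding one and an internal one whose last bases, printed above, hold no CCN run. The window of the first holds 572 coding bases and the window of the second none, and the deposited table gives 1 value for the gene, so both kinds of transcript cannot be told apart in it. Which of these ends the study counted is not given in the sources used here, so the Syne1 value and its ratios may cover KASH-coding transcripts, internal ones or both. Syne2 (chr12:75818134-76110926) has 1 such end, with 144 coding bases in its window. Syne3 (chr12:104929933-105009809) has 2, with coding lengths of 2664 and 2925 bases, and both share the KASH-coding bases shown. The window of the shorter coding form holds 0 coding bases and that of the longer 863. These forms cannot be told apart in the single value of the gene, so the Syne3 value may cover either or both. Sun1 (chr5:139200637-139249840), Sun2 (chr15:79724070-79742536) and Tor1a (chr2:30960627-30967933) each keep 1 stop codon over all their RefSeq ends. No exon of another annotated gene overlapped the counted end of any of these genes. Because each molecule was counted at its end, values of different genes were not divided by transcript length. The genes with more than 1 annotated end have more than 1 such stretch, so an order of levels between genes is a description of these counts, and the part of the number of ends in it was not tested.

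The libraries held between 1846208 and 3242051 UMIs, of which the 6 members made up between 656 and 1109. Lmna, the targeted gene, stood at 873 ± 62.8 CPM (SD, n = 3) in control and 381 ± 6.34 CPM (SD, n = 3) in knockdown cells. CPM are UMIs of the gene per 1000000 UMIs of the tested genes in the library, scaled by edgeR's TMM factors. The log2 fold change of Lmna was -1.20 (standard error 0.13, adjusted p = 3.55e-05, edgeR). Of 7 epithelial markers 4 were in the table, and their summed level ran from 263 to 308 CPM in shControl and from 293 to 328 in shLmna, most of it Krt8. Epcam, at 12.7, 14.2 and 13.2 CPM in shControl and 5.2, 12.2 and 4.3 in shLmna, did not follow that sum, nor did Krt18 at 7.1, 4.3 and 9.0 against 2.6, 7.6 and 3.8. Krt19, Cdh1 and Cldn4 were not in the table, nor was any of the 5 leukocyte markers. The 4 fibroblast markers in the table (of 6) summed to between 5.86 and 8.44 in shControl and between 14.1 and 18.4 in shLmna. Col3a1 was at 0 in every shControl library and at 4.8, 4.6 and 6.5 CPM in shLmna. Pdgfra, at 5.6, 5.2 and 4.2 in shControl and 4.8, 6.1 and 5.4 in shLmna, did not follow that sum. The groups of Col1a1 and of Col1a2 overlapped. The 1 endothelial marker (of 4), Pecam1, was at most 3.16. The part of the fibroblast markers in the LINC results was not tested. Marker levels are per library total, without TMM scaling. A pair of libraries stood apart in melanocyte genes. Tyrp1, Dct, Pmel, Mlana and Mitf (5 of 6 listed; Tyr was not in the table) summed to 730 CPM in shControl replicate 3 and to 614 in shLmna replicate 2, against 0.739 to 5.62 in the other 4. Each group holds 1 of these 2 libraries, so fold changes and ratios of the members are also given without both.

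Nesprin-3 was the 1 of the 6 LINC members that passed an adjusted p of 0.05 (edgeR), against 13.7% of all tested genes. For Syne3, 36, 39 and 15 UMIs were counted in replicates 1, 2 and 3 of shControl, against 78, 80 and 39 in those of shLmna. Scaled to library size by edgeR's TMM factors, these were 14.1, 12.2 and 8.0 CPM in shControl and 29.2, 29.4 and 20.7 in shLmna. Every shLmna library was above every shControl library, as for 16.8% of all tested genes. The lowest values of the groups came from their shallowest libraries. The smallest count, 15 UMIs, has an exact 95% Poisson interval of 8.4 to 24.7, which covers counting error only. The mean level was 11.4 ± 3.15 CPM (SD, n = 3) without and 26.5 ± 4.94 CPM (SD, n = 3) with the knockdown, a 2.29-fold rise (95% interval 1.58 to 3.31). On the log2 scale the change was 1.19 (standard error 0.25, adjusted p = 0.00599 by the quasi-likelihood test of edgeR, with Benjamini-Hochberg adjustment over all 8969 genes). In bulk RNA, a change in the number of cells that express a gene and a change in its RNA per cell cannot be told apart. This holds here and for the other members. Without both libraries that held melanocyte transcripts the change was 0.95 (95% interval 0.38 to 1.53, adjusted p = 0.0254, edgeR, 2 libraries per group), and with the presence of these transcripts as a block it was 1.20 (adjusted p = 0.00159, edgeR). The adjusted p stayed between 0.00159 and 0.0408 over all 16 alternatives that tested the gene.

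Nesprin-2 was higher in shLmna in the same direction and did not pass the test. Syne2 had 129, 147 and 105 UMIs in shControl and 198, 182 and 113 in shLmna. In CPM these were 50.6, 46.0 and 55.7 in shControl and 74.2, 66.8 and 60.1 in shLmna. The groups thus did not overlap, as for 32.5% of all tested genes in either direction. The log2 fold change was 0.41 (95% interval 0.06 to 0.76), with an unadjusted p of 0.0238 and an adjusted p = 0.110 (edgeR). The adjusted p ran from 0.0642 to 0.355 over the alternatives, and without both libraries with melanocyte transcripts the log2 fold change was 0.49 (adjusted p = 0.115, edgeR).

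Nesprin-1 was the member with a negative log2 fold change. Syne1 had 112, 115 and 78 UMIs in shControl and 75, 99 and 57 in shLmna. In CPM the values were 43.9, 36.0 and 41.4 in shControl and 28.1, 36.3 and 30.3 in shLmna. The groups overlapped through the second replicates, 36.0 in shControl and 36.3 in shLmna. The log2 fold change was -0.35 (95% interval -0.75 to 0.05, adjusted p = 0.244, edgeR), and -0.45 (adjusted p = 0.214, edgeR) without both libraries with melanocyte transcripts.

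**Figure D1:**
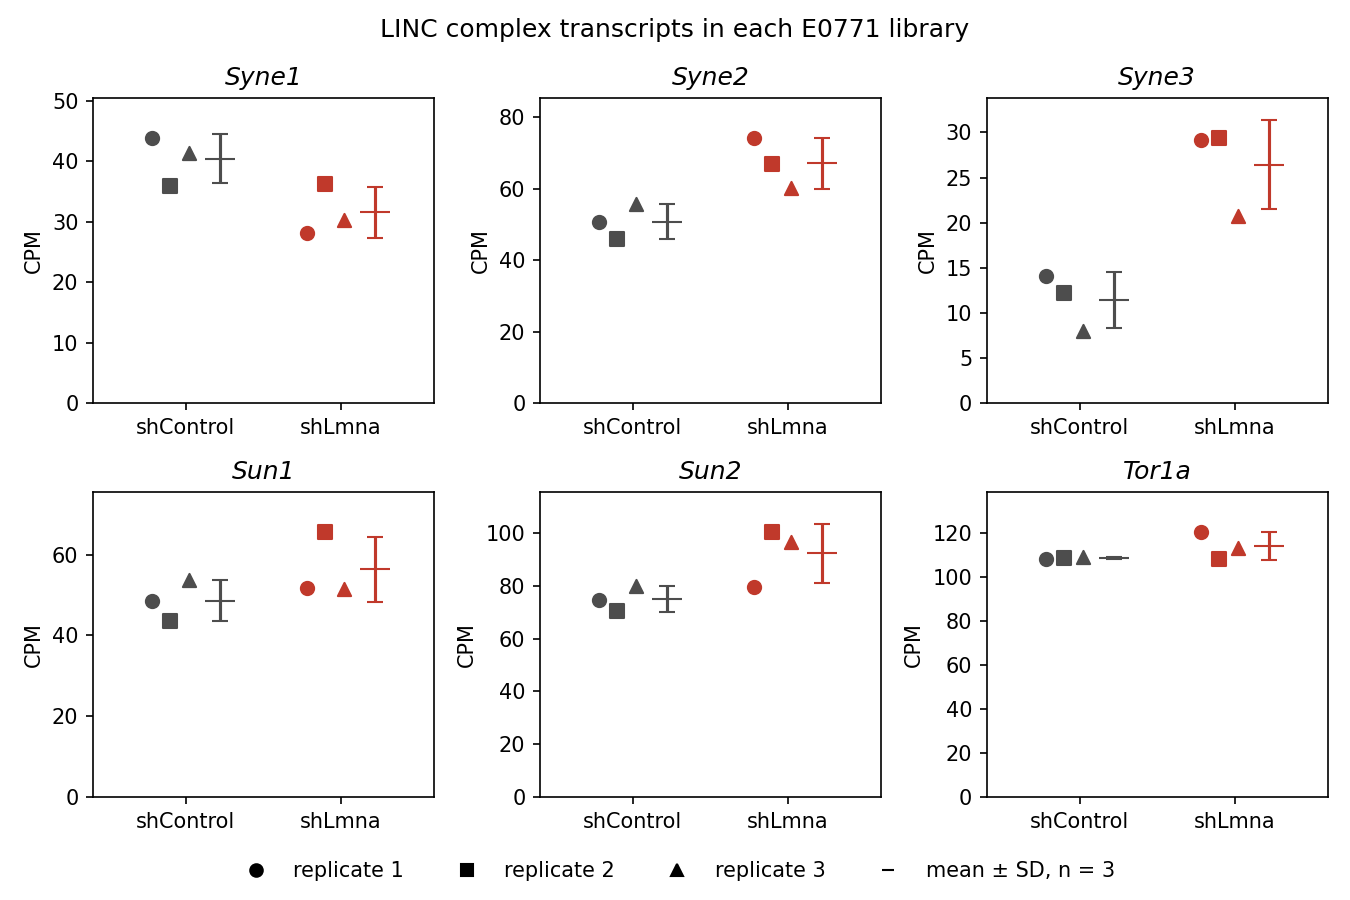
Each panel plots 1 LINC gene, with CPM (TMM-scaled, linear axis from 0) on the y axis and the shControl and shLmna groups on the x axis. Circles, squares and triangles are replicates 1, 2 and 3, bars are the mean ± SD (n = 3), and the triangle of shControl and the square of shLmna are the libraries with melanocyte transcripts. The groups of Syne3 and Syne2 do not overlap, with Syne3 at 8.0 to 14.1 in shControl and 20.7 to 29.4 in shLmna, while those of the other 4 genes do. Of all tested genes 32.5% do not overlap, in either direction.

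In the make-up of the nesprin transcripts the groups did not overlap for Syne3 and Syne1, a comparison within each library that needs no scaling between libraries. The shares were not among the planned results. For levels of single genes, 32.5% of all tested genes had groups without overlap, and no such figure was computed for shares or ratios. Syne3 made up 13%, 13% and 7.6% of all nesprin UMIs in the 3 shControl libraries, in replicate order, and 22.2%, 22.2% and 18.7% in shLmna. Syne1 made up 40.4%, 38.2% and 39.4% in shControl and 21.4%, 27.4% and 27.3% in shLmna. The share of Syne2 averaged 49.5% ± 3.25 (SD, n = 3) in control and 53.6% ± 3.03 (SD, n = 3) in knockdown cells, with overlapping groups. In control cells nesprin-1 transcripts thus outnumbered those of nesprin-3 in every library, while in knockdown cells 75, 99 and 57 UMIs of Syne1 stood beside 78, 80 and 39 of Syne3. The summed nesprin level was 103 ± 7.55 CPM (SD, n = 3) in control and 125 ± 12.1 CPM (SD, n = 3) in knockdown cells. Shares within a library depend on each other, as a higher share of Syne3 leaves less for Syne1 and Syne2. The level of Syne1 by itself did not pass the test.

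The log2 ratio of Syne3 to Syne1 was -1.61, -1.54 and -2.30 in shControl and 0.06, -0.30 and -0.54 in shLmna, a difference of 1.56 with no overlap. The ratio of Syne3 to Syne2 moved by 0.80 and that of Syne2 to Syne1 by 0.75, also with no overlap. The difference of Syne3 to Syne1 is the sum of these 2 apart from rounding, so the 3 are not separate results. For each of these 3 ratios the two-sided exact permutation p was 0.1, the smallest that 3 libraries against 3 can give, and 0.2 after Benjamini-Hochberg adjustment over the 6 ratios computed, so that none could pass. Without both libraries with melanocyte transcripts the differences were 1.33 for Syne3 to Syne1, 0.43 for Syne3 to Syne2 and 0.90 for Syne2 to Syne1. The difference of Syne3 to Syne2 was 0.51 without shControl replicate 3 alone, the library with 15 UMIs of Syne3.

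**Figure D2:**
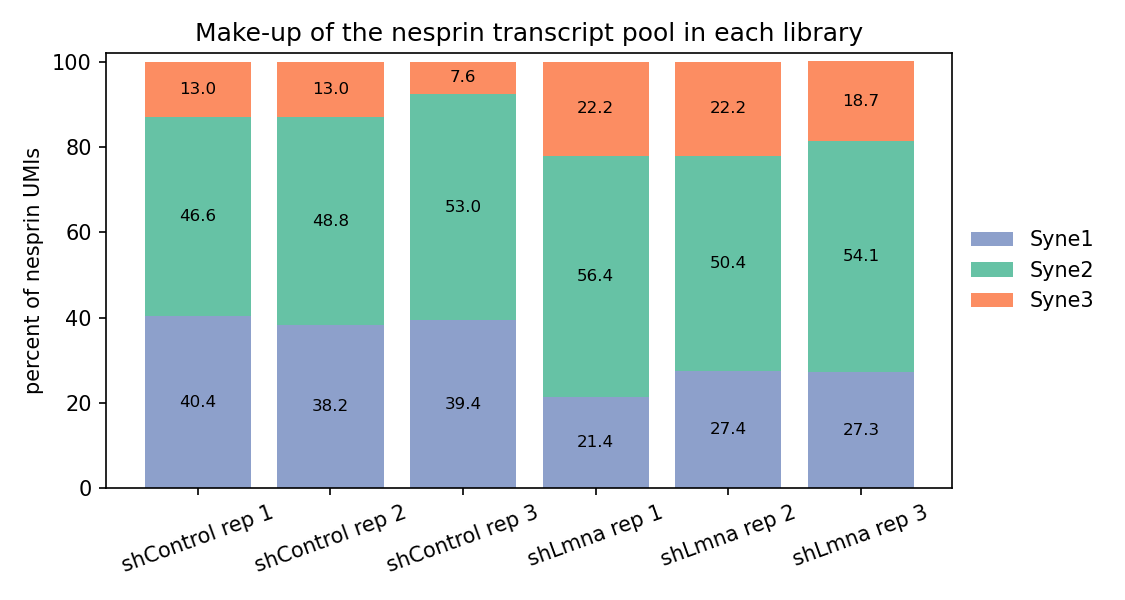
Stacked bars give, for each of the 6 libraries, the percent of nesprin UMIs that belong to Syne1, Syne2 and Syne3, with the value printed in each segment. Syne3 takes between 7.6% and 13% in the shControl libraries and between 18.7% and 22.2% in the shLmna libraries, and Syne1 takes at least 38.2% in shControl and at most 27.4% in shLmna.

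The SUN protein genes, whose products bind lamin A/C on one side and the nesprins on the other, did not pass the test. Sun1 stood at 48.6, 43.5 and 53.6 CPM in shControl and 51.7, 65.7 and 51.6 in shLmna. Only shLmna replicate 2 lay above all shControl libraries, and the log2 fold change was 0.23 (95% interval -0.14 to 0.59, adjusted p = 0.424, edgeR). Sun2 stood at 74.5, 70.4 and 80.1 in shControl and 79.5, 100.6 and 96.8 in shLmna. Replicates 2 and 3 of shLmna were above all shControl libraries and replicate 1 was not, and the log2 fold change was 0.30 (95% interval -0.03 to 0.63, adjusted p = 0.222, edgeR). Without both libraries with melanocyte transcripts the log2 fold changes were 0.17 for Sun1 and 0.28 for Sun2 (adjusted p = 0.642 and 0.362, edgeR).

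The balance of the SUN pair was alike in most libraries. Sun2 made up between 59.9% and 61.8% of the UMIs of the pair in shControl, 60.6% and 60.5% in shLmna replicates 1 and 2, and 65.2% in shLmna replicate 3. The log2 ratio of Sun2 to Sun1 differed by 0.08 between the groups, with an exact permutation p of 0.6, by -0.01 without shLmna replicate 3 and by 0.11 without both libraries with melanocyte transcripts. The ratio of Syne2 to Sun2 differed by 0.11 (exact permutation p = 0.9), by -0.07 without shLmna replicate 1 and by 0.19 without both libraries.

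TorsinA transcripts were the most abundant of the members and the closest between the groups. Tor1a had 830 UMIs in total in each group. In CPM it stood at 108.2, 108.8 and 109.3 in shControl and 120.7, 108.3 and 113.3 in shLmna, with a log2 fold change of 0.07 (95% interval -0.23 to 0.36, adjusted p = 0.797, edgeR). Replicates 1 and 3 of shLmna were above all shControl libraries and replicate 2 was within their range. As a fold the interval runs from 0.855 to 1.29. Without both libraries with melanocyte transcripts the log2 fold change was 0.11 (adjusted p = 0.733, edgeR). The ratio of Tor1a to Sun2 differed by -0.23 on the log2 scale (exact permutation p = 0.3) and by -0.17 without both libraries, and its groups overlapped.

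The order of the mean levels was the same in both groups, with Tor1a first, followed by Sun2, Syne2, Sun1, Syne1 and Syne3. In shControl the ranges of Syne2 and Sun1 overlapped, as did those of Sun1 and Syne1, while the other neighbours were apart. In shLmna the ranges of Syne2 and Sun1 again overlapped, and so did those of Syne1 (28.1 to 36.3 CPM) and Syne3 (20.7 to 29.4). The gap between nesprin-1 and nesprin-3 that separated them in control cells, 40.4 ± 4.07 against 11.4 ± 3.15 (SD, n = 3), was thus 31.6 ± 4.27 against 26.5 ± 4.94 (SD, n = 3) after knockdown.

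**Figure D3:**
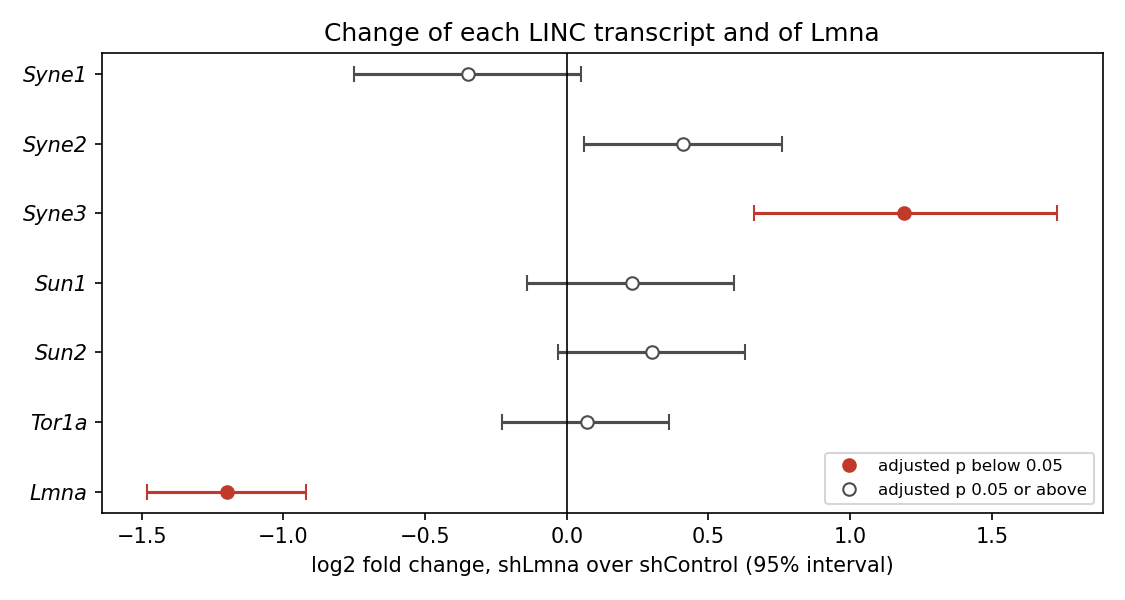
The x axis gives the log2 fold change of shLmna over shControl from edgeR, with its 95% interval, for the 6 LINC genes and the targeted gene Lmna on the y axis. Filled red points passed an adjusted p of 0.05 and open grey points did not: Syne3 lies at 1.19, Lmna at -1.20, and the other 5 LINC genes between -0.35 and 0.41.

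In all, 1 of the 6 members (Syne3) passed an adjusted p of 0.05, against 13.7% of all tested genes. In its direction 7.96% of all tested genes passed, and 5.78% in the other, where 0 members did. Syne3 also met the 3 criteria of the study's methods, which add to that threshold a change of over 1 log2 unit either way and a mean of more than 5 normalized counts, as did 5.71% of the tested genes (3.97% in its direction). The groups did not overlap for 2 members (Syne3 and Syne2), against 32.5% of the tested genes in either direction. Both were higher in shLmna, the direction of 16.8% of the tested genes. The median log2 fold change of the members was 0.26, with 5 of 6 above 0, against 0.003 and 50.4% over all tested genes.

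The genes around the complex were taken from 5 lists, of which 34 of 41 genes could be tested. Lmna, the target of the shRNA, was the 1 that passed, against 13.7% of all tested genes, and no other listed gene did. A positive log2 fold change was found for 15 of the 34 (44.1%), against 50.4% of all tested genes. Among the lamina and inner membrane partners of the SUN proteins, 0 of 7 passed the threshold as higher in shLmna. As lower 1 passed, the targeted gene Lmna itself. Of all tested genes 7.96% and 5.78% passed in these directions. The median log2 fold change of the list was -0.23, against 0.003 over all tested genes. Banf1, the barrier-to-autointegration factor that bridges DNA and the lamina, had -0.23 (adjusted p = 0.263, edgeR). By mean count over all 6 libraries Banf1 was the most abundant of this list, while in shControl Lmna was higher, at 873 against 773 CPM. Emerin (Emd) had -0.30 with values from 401 to 811 CPM. Among the torsin relatives and cofactors 0 of 5 tested genes passed (median 0.03), and Tor2a, the most abundant, had -0.07. The torsin activators Tor1aip1 (LAP1) and Tor1aip2 (LULL1) had 0.03 and 0.24.

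On the cytoskeletal side none of the lists had a gene past the threshold of edgeR's test. Of 8 genes of the actin and intermediate filament side (median 0.07), plectin (Plec), the partner of nesprin-3, had a log2 fold change of -0.02 (95% interval -0.34 to 0.29). Vimentin (Vim), the most abundant by mean count over all 6 libraries, had 0.18. Beta-actin (Actb), which was above Vim in shControl at 6039 against 5229 CPM, had -0.46. Its unadjusted p was 0.0121 and its adjusted p = 0.0722 (edgeR). Of 13 tested genes of the microtubule motor side the median was 0.00, and Dctn2, a dynactin subunit and the most abundant, also had 0.00. The dynein subunits Dync1h1, Dync1i2 and Dync1li2 had -0.37, -0.34 and -0.42, with adjusted p between 0.0876 and 0.169 (edgeR). At an unadjusted p under 0.05 the lists held 9 genes: Lmna, Tmem43, Tor4a, Actb, Dst, Ndel1 and these 3. That is 26.5% of the 34, against 28.4% of all tested genes. These 9, and Emd, Tor1aip1, Tor1aip2 and Plec, were named after their values were seen, apart from Lmna. DESeq2 called 2 listed genes, Lmna and Actb. Of the KASH and SUN genes known from restricted tissues, Spag4 alone could be tested (log2 fold change -0.13, adjusted p = 0.845, edgeR). Syne4, Sun3 and Sun5 were not in the table, and Ccdc155 and Lrmp were below the filter.

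**Figure D4:**
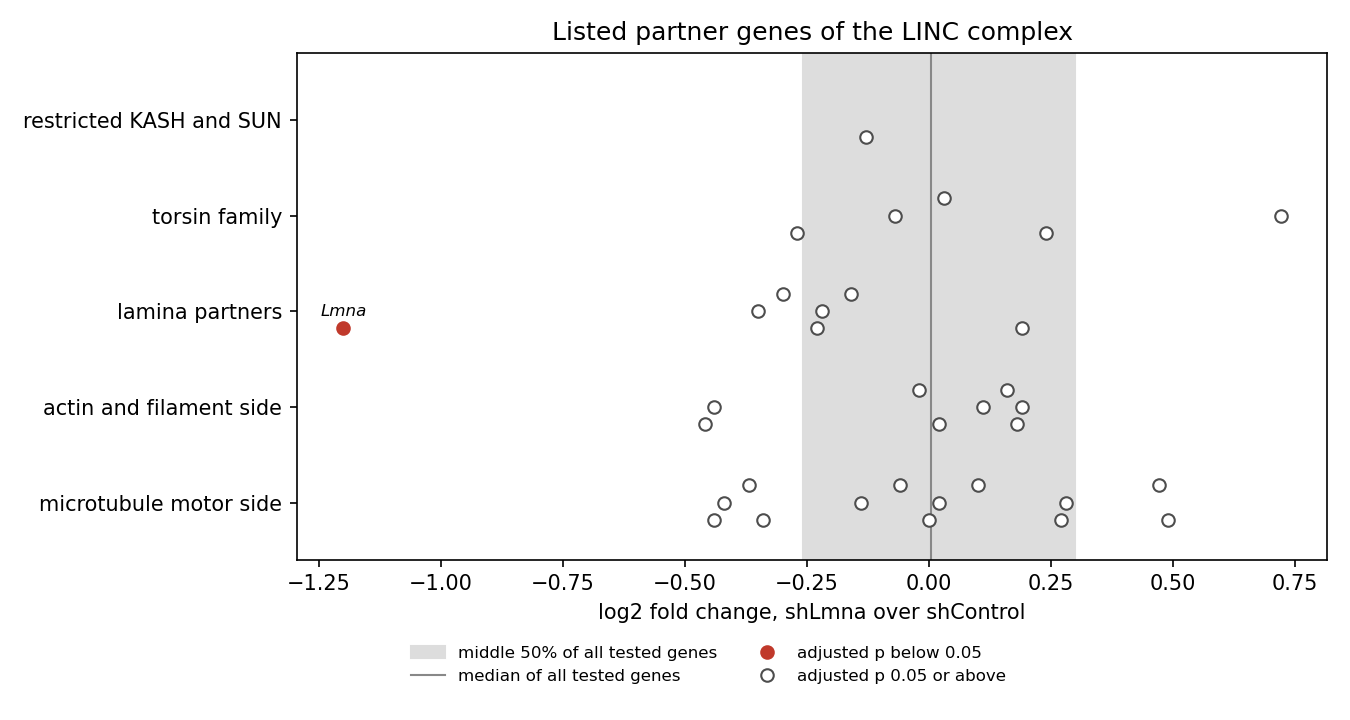
Each point is 1 tested gene of the 5 lists on the y axis, placed by its log2 fold change of shLmna over shControl on the x axis; vertical offsets within a list only keep points apart. The grey band spans the lower to the upper quartile of all tested genes, the line their median of 0.003, and Lmna at -1.20 is the 1 filled point, past an adjusted p of 0.05.

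The genes whose pattern over the 6 libraries lay closest to each member were found by the root mean square distance of centred log2 values. Among 5842 candidates with a mean count of at least 50 the 2 nearest to Syne3 were Mmp2, a matrix metalloprotease, at a distance of 0.133, and Emilin2, an extracellular matrix glycoprotein, at 0.155. Mmp2 stood at 14.1, 13.8 and 8.5 CPM in shControl and 31.9, 27.2 and 26.1 in shLmna, a log2 fold change of 1.20 (adjusted p = 0.00396, edgeR), and Emilin2 had 1.18 (adjusted p = 0.000334, edgeR). The nearest to Syne2 were Mrpl14 and Smarce1, to Syne1 Fxr1 and Drosha, to Sun1 Rcc2 and Slc25a11, to Sun2 Foxs1 and Pura, and to Tor1a Eng and Sphk2. These distances lay between 0.037 and 0.0539, and none of the 10 genes passed an adjusted p of 0.05 (edgeR). Distances are descriptions over 6 libraries, and with this many candidates near matches are found for most patterns. They include the difference between the groups. The fold changes of the nearest genes, and whether they passed, thus follow in large part from how these genes were chosen.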

How the data were processed

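The authors trimmed reads with Cutadapt, mapped them to mm10 with STAR 2.4.2a and counted UMIs with a modified HTSeq-count. The deposited counts are whole and not normalized, and every gene reaches at least 6 UMIs in some library. The authors' ComBat table and table of their own DESeq2 comparison (fold changes, p-values) were not used.

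The tests were run with edgeR 4.0.16 under R 4.3.3 (filterByExpr with a minimum count of 10, TMM, quasi-likelihood test, Benjamini-Hochberg adjustment). DESeq2 1.42.0 and limma 3.58.1 (voom) were alternatives. Intervals are the log2 fold change ± the standard error times the t quantile of the test. Ratios used a pseudocount of 1. The GC correction was a loess offset per library (span 0.3) on the GC content of 3' ends, matched for 10473 of 10520 genes. Annotation was GENCODE M21. Plots used matplotlib 3.10.9 (Python 3.11.15).

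On simulated counts for the same comparison edgeR recovered 91% of 100 genes changed 2-fold and 100% of 100 changed 4-fold, with 13 false calls among 8793 genes. The changed genes were drawn only from those above a minimum mean CPM that Syne3 did not reach. The recovery therefore does not cover genes at the level of Syne3. Every pair of replicates differed beyond sampling noise (chi-square per degree of freedom at least 5.37). The libraries held 1846208 to 3242051 UMIs, and intervals on counts cover counting error only. The members and lists were chosen with earlier results of these data known. Named were all members, Lmna, of each list the genes past the threshold and the most abundant, and the 2 nearest genes of each member. The other partner genes in the report were named after their values were seen.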

Additional observations from a re-analysis of the deposited data

How the results depend on the processing

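Of the 6 members and Lmna, each kept its direction and its side of the threshold under every alternative that tested it: other tests, scalings and filters, the GC correction, each library left out, and the 2 treatments of the libraries with melanocyte transcripts, which were chosen after seeing the data. The log2 fold change of Syne3 lay between 0.95 and 1.34, and that of Lmna between -1.26 and -1.13. A filter at a mean count of 50 left out Syne3, whose mean was 47.8 UMIs, and the number of members called was then 0 in place of 1, by that construction. The number of listed partner genes called was 1 and became 2 with DESeq2, 2 with the replicate block (Lmna and Actb), and 3 with the GC correction, alone or with replicate block, and 3 with melanocyte transcripts as a block. It ran from 1 to 3 with each library left out, the 3 without shControl replicate 3, and the cause was not tested. Leaving out libraries reversed the ratio of Sun2 to Sun1 (from -0.01 to 0.13) and that of Syne2 to Sun2 (from -0.07 to 0.22). Deviations of same-numbered libraries correlated at 0.352, -0.115 and 0.00519, and those of the other combinations ran from -0.365 to 0.35. Deviations from a mean of 3 libraries depend on each other, so whether the numbers pair the samples cannot be decided from these values. With the replicate block Syne3 had 1.21 and 1350 genes were called over the whole table, against 1232. That whole-table number was 779 with the filter at a mean count of 50, 1868 with the melanocyte block, and between 540 and 1580 with each library left out. The depth limits Syne3 most, at 15 to 80 UMIs per library.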

Other observations

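The melanocyte genes were at comparable levels in both libraries that held them. Pmel had 450 UMIs in shControl replicate 3 and 499 in shLmna replicate 2, and between 1 and 8 in the other 4. Tyrp1 had 428 and 461 against 0 or 1, Dct 271 and 306 against 0 or 1, and Mlana 205 and 316 against 0 to 3. Across all tested genes the deviations of these 2 libraries from their group means correlated at 0.35, a description over 8969 genes. Those of shControl replicate 1 and shLmna replicate 1, which are among the other 4, correlated at 0.352. Deviations from a group mean depend on each other, so these values do not single out the libraries with melanocyte transcripts. With the presence of these transcripts as a block 1868 genes had an adjusted p below 0.05 (edgeR), against 1232 without it and 1183 when both libraries were left out. The study also sequenced RNA of a mouse melanoma line, and its library protocol pools barcoded samples. Where the melanocyte transcripts in these 2 libraries came from was not tested.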
